A study of Mus musculus with 12 samples.

Results

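Fatty acid oxidation and ketone body metabolism were followed through 9 genes: the carnitine palmitoyltransferases *Cpt1a* and *Cpt2*, the β-oxidation enzymes *Acadl*, *Acadm* and *Hadha*, the regulators *Ppara*, *Ppard* and *Ppargc1a*, and the ketone body enzyme *Bdh1*. They were chosen by name, and each matched 1 of the 34245 rows of the count table. The RNA came from 2 sorted populations of the small intestine of male C57BL/6 mice that all carried the Lgr5-EGFP-IRES-creERT2 knock-in allele, were fed ad lib, with no treatment named. Intestinal stem cells (ISC) were the GFP-high, DAPI-negative cells of crypt suspensions, and adult enterocytes (AE) were the Epcam-high villus cells negative for CD31, CD45 and DAPI. There were 3 libraries each of young ISC, aged ISC, young AE and aged AE, from mice of about 8 months (young, which is middle age rather than early adulthood) and about 27 months (aged).

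Long-chain fatty acids enter mitochondria as carnitine esters and are shortened there by β-oxidation to acetyl-CoA. Ketogenesis turns acetyl-CoA into acetoacetate and β-hydroxybutyrate, which other tissues, or the cell itself, can use as fuel or signal. The nuclear receptors PPARα and PPARδ bind fatty acids and switch on many of these genes, and PGC-1α, the product of *Ppargc1a*, is a coactivator of both. In the intestine, stem cells are known for active fatty acid oxidation and villus enterocytes handle most of the dietary fat.

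Levels are given in CPM, the counts per 1000000 counts of a library after scaling with TMM factors. Library totals lay between 11893817 and 26796461 counts, except for the young AE library Y3 with 110794420. Codes Y1, Y2 and Y3 (young) and O1, O3 and O5 (aged) each occur once in ISC and once in AE. In 8 of the 12 sample titles the code contradicts the rest of the title, so each library was assigned by the name of its column, and the labels do not tie a library to an animal. The p-values therefore measure the spread between these libraries, which may in part be technical. The labelled cell types matched their markers: all 19 enterocyte markers were higher in AE and all 14 stem cell markers were lower in AE, at both ages. The AE libraries were not enterocytes alone, since the summed level of 8 goblet cell markers was 29898 to 61745 CPM in AE against 1497 to 2374 CPM in ISC. The largest share of the other population's markers was held by young ISC library Y3 (19 enterocyte markers at 9744 CPM against 2134 to 5699 CPM in the other ISC libraries) and young AE library Y2 (14 stem cell markers at 727 CPM against 150 to 288 CPM in the other AE libraries). T cell and myeloid marker sums were at most 57.7 and 37.3 CPM in any library. In bulk RNA such as this, fewer cells of a type and less RNA per cell cannot be told apart.

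The upstream sequences of 3 genes are shown for description. For 6 of the 9 members code Y3 was the highest young library in both ISC and AE, and PPARs bind the hexamer AGGTCA as 2 copies 1 base apart. A part of PPARs in that order was not tested. The sequences are the 250 bases before the start of the gene in RefSeq (GRCm38.p6), printed 5′ to 3′ on the gene's strand. Capitals mark a match to AGGTCA on the opposite strand in *Acadm* (chr3:153944644-153944893, minus strand, 244 to 249 bases upstream) and *Cpt1a* (chr19:3323051-3323300, plus strand, 89 to 94 bases upstream). In *Fabp1* (chr6:71199629-71199878, plus strand), which encodes the liver-type fatty acid-binding protein, they mark 2 copies of the looser hexamer AGGNCA that lie 1 base apart, on the opposite strand, 55 to 67 bases upstream. A further exact match to AGGTCA on the opposite strand, near the end of the *Fabp1* sequence, is left in lower case.
Acadm: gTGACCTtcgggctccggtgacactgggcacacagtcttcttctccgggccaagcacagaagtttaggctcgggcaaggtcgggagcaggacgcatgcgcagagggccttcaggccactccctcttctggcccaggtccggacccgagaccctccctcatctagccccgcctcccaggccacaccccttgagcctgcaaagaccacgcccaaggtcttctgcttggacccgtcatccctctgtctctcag
Cpt1a: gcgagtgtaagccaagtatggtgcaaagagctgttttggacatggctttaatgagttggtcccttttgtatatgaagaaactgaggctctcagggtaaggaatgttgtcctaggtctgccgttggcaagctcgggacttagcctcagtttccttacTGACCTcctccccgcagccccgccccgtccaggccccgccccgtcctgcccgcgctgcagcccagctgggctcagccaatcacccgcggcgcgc
Fabp1: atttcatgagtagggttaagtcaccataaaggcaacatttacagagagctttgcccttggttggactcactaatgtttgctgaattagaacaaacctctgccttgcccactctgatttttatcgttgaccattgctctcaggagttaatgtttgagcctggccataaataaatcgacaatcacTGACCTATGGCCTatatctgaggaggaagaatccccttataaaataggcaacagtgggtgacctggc
Searched on both strands, AGGTCA occurred in 14% of all 32851 promoters of this length and in 2 of 10 promoters of the members. In the wider pathway lists described below it occurred in 17 of 91 promoters (18.7%). These 91 belonged to 71 of the 90 genes of the lists. A pair of AGGNCA copies 1 base apart, in which a copy may also match AGGTCA, occurred in 0.338% of all promoters, in 0 of the 10 member promoters and in 1 of the 91. A match describes letters and not a bound site.

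At both ages AE expressed more *Cpt2*, *Acadm*, *Ppara* and *Ppargc1a* than ISC and less *Bdh1*, with no called difference in *Cpt1a*. *Ppard* was also called higher in AE in young mice, and *Acadl* and *Hadha* in aged mice. In young mice 5 of the 9 genes were higher in AE and 1 was lower in the quasi-likelihood test of edgeR (FDR threshold of 0.05), in which 53.1% of all 16681 genes tested were called, 27.7% as higher and 25.4% as lower. In aged mice 6 were higher and 1 was lower, in a comparison in which 64.1% of 15855 genes were called, 30% as higher and 34.1% as lower. The median log2 difference between AE and ISC was 1.24 over the 9 genes against 0.15 over all genes in young mice, and 1.09 against -0.13 in aged mice. These calls come from fits without the library code. With that code as a block, 8997 of 16681 genes were called in young and 10513 of 15855 in aged mice. Of the 9 members, 8 were called at each age. Among these were *Acadl* and *Hadha* in young mice (FDR 0.000824 and 0.00428) and *Ppard* in aged mice (FDR 0.0369).

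**Figure D1:**
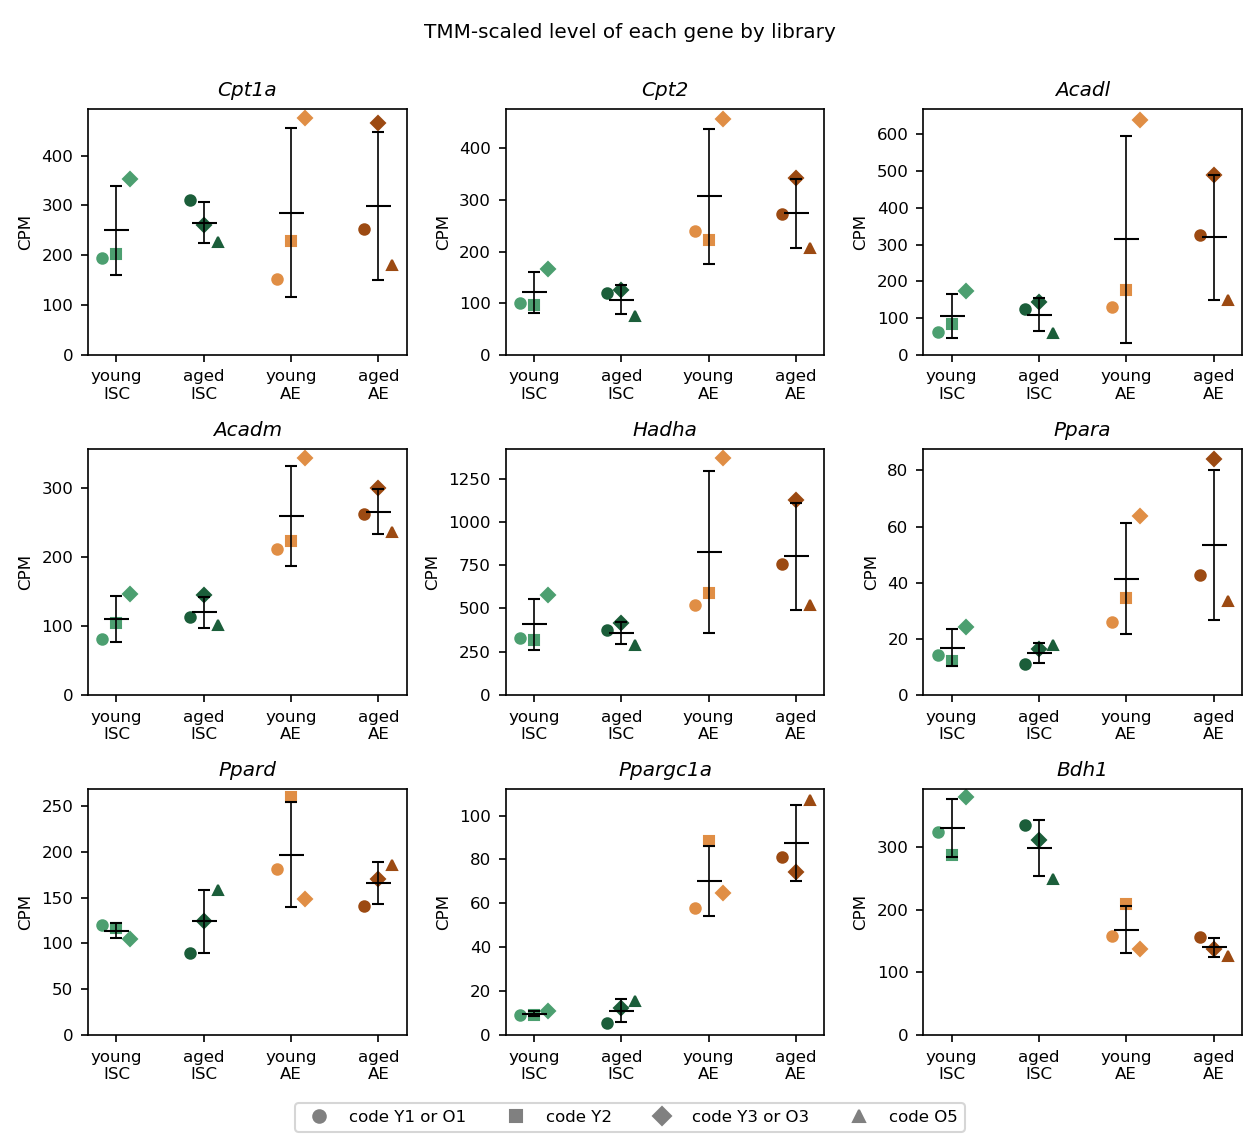
TMM-scaled CPM (y axis, from 0) of the 9 genes in each of the 12 libraries by group (x axis), with symbols for the library codes and the mean with its SD (bars). *Ppargc1a*, *Cpt2*, *Acadm* and *Ppara* lie higher in AE without overlap within an age, *Bdh1* lies lower, and code Y3 (diamonds among the young) is highest of the young libraries for *Cpt1a*, *Cpt2*, *Acadl*, *Acadm*, *Hadha* and *Ppara* in both cell types.

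*Cpt1a* (chr19:3323301-3385732, GRCm38, plus strand, as are all positions from the count table) encodes the outer-membrane enzyme that forms acylcarnitines, the controlled step of entry that malonyl-CoA inhibits. Its level was 194, 203 and 353 CPM in young ISC libraries Y1, Y2 and Y3 and 310, 260 and 227 CPM in aged ISC libraries O1, O3 and O5. In AE it was 152, 228 and 476 CPM (young) and 252, 465 and 180 CPM (aged), so all 4 groups overlapped. The log2 difference between AE and ISC was 0.19 ± 0.42 (SE) in young mice and 0.11 ± 0.32 in aged mice (FDR 0.72 and 0.786).

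*Cpt2* (chr4:107903981-107923610, minus strand) encodes the inner-membrane partner that hands the acyl group back to CoA. It was at 100, 96.8 and 166 CPM in young ISC and 120, 126 and 74.5 CPM in aged ISC, against 240, 223 and 457 CPM in young AE and 272, 342 and 207 CPM in aged AE. Every AE library was above every ISC library. The difference was 2.54-fold in young mice (log2 1.34 ± 0.34, FDR 0.0105) and 2.44-fold in aged mice (1.29 ± 0.26, FDR 0.0016).

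The 2 acyl-CoA dehydrogenases carry out the first step of each β-oxidation cycle, *Acadl* on long chains and *Acadm* on medium chains. *Acadm* (chr3:153922357-153944632, minus strand) was at 80.7, 105 and 146 CPM in young ISC, 113, 145 and 102 CPM in aged ISC, 212, 224 and 344 CPM in young AE and 263, 300 and 236 CPM in aged AE. The cell types did not overlap, and AE was higher by 1.24 ± 0.28 log2 units in young mice (FDR 0.0063) and by 1.08 ± 0.19 in aged mice (FDR 0.000798). *Acadl* (chr1:66830839-66863277, minus strand) varied more, with 61.5, 84.7 and 174 CPM in young ISC, 125, 145 and 59.2 CPM in aged ISC, 129, 177 and 639 CPM in young AE and 325, 488 and 148 CPM in aged AE. The young cell types overlapped and the aged did not.

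For *Acadl* the AE to ISC difference was 1.56 ± 0.63 log2 units in young mice (FDR 0.0675) and 1.48 ± 0.44 in aged mice (FDR 0.0136). With the library code as a block, the young difference was 1.34 ± 0.21 (FDR 0.000824). It was 0.46 (FDR 0.352) without young AE library Y3 and was called without young AE library Y1 or Y2 (FDR 0.039 and 0.0432) or young ISC library Y3 (FDR 0.0376), and without aged AE library O3 the aged difference was 1.03 (FDR 0.0669).

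*Hadha* (chr5:30118304-30155162, minus strand) encodes the α subunit of the trifunctional protein, which performs the next steps on long chains. It was at 329, 319 and 579 CPM in young ISC, 375, 413 and 286 CPM in aged ISC, 522, 591 and 1366 CPM in young AE and 758, 1127 and 517 CPM in aged AE. Only the young ISC library Y3 reached into the AE range of its age, and the aged cell types did not overlap. The difference was 1.01 ± 0.42 log2 units in young mice (FDR 0.0713) and 1.09 ± 0.30 in aged mice (FDR 0.00929). With the code block the young value was 0.93 ± 0.20 (FDR 0.00428), without young AE library Y3 it was 0.38 (FDR 0.339), and without young ISC library Y3 it was 1.35 (FDR 0.0369).

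Of the regulators, *Ppargc1a* (chr5:51454250-51567726, minus strand) differed most between the cell types among the 9 genes. Its level was 9.24, 9.03 and 11 CPM in young ISC and 5.33, 12.5 and 15.4 CPM in aged ISC, against 57.9, 88.3 and 64.7 CPM in young AE and 81.2, 74.4 and 107 CPM in aged AE. The lowest AE library was above the highest ISC library. AE was 7.19-fold higher in young mice (log2 2.85 ± 0.21, FDR 0.000113) and 7.55-fold higher in aged mice (2.92 ± 0.35, FDR 5.06e-05).

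*Ppara* (chr15:85734983-85802819, plus strand) encodes PPARα. It was at 14.1, 12 and 24.3 CPM in young ISC, 10.9, 16.4 and 17.8 CPM in aged ISC, 26, 34.7 and 63.8 CPM in young AE and 42.8, 84 and 33.6 CPM in aged AE. The cell types did not overlap. AE was 2.47-fold higher in young mice (log2 1.31 ± 0.38, FDR 0.0204) and 3.42-fold higher in aged mice (1.77 ± 0.34, FDR 0.00124). The young call was lost without Y1 or Y2 of young ISC (FDR 0.0776 and 0.0731) or Y3 of young AE (FDR 0.065).

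*Ppard* (chr17:28232754-28301469, plus strand) encodes PPARδ, the more broadly expressed receptor. It was at 120, 117 and 105 CPM in young ISC, 89.4, 125 and 158 CPM in aged ISC, 181, 260 and 149 CPM in young AE and 141, 170 and 186 CPM in aged AE. Young AE libraries were all above young ISC, and the aged cell types overlapped. The difference was 0.79 ± 0.22 log2 units in young mice (FDR 0.0172) and 0.35 ± 0.22 in aged mice (FDR 0.193), the latter 0.37 ± 0.14 with the code block (FDR 0.0369) and 0.55 without aged ISC library O5 (FDR 0.0432). The young value fell to 0.44 (FDR 0.0828) without young AE library Y2, the one richest in stem cell markers, and the call was also lost without young ISC library Y2 (FDR 0.0504) or Y3 (FDR 0.0532).

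*Bdh1* (chr16:31422280-31458901, plus strand) encodes the mitochondrial enzyme that interconverts acetoacetate and β-hydroxybutyrate. It was at 324, 287 and 380 CPM in young ISC and 336, 312 and 249 CPM in aged ISC, against 158, 210 and 137 CPM in young AE and 156, 138 and 126 CPM in aged AE. Every ISC library was above every AE library. ISC was 1.96-fold higher in young mice (AE to ISC log2 -0.97 ± 0.21, FDR 0.00577) and 2.25-fold higher in aged mice (-1.17 ± 0.18, FDR 0.000306).

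**Figure D2:**
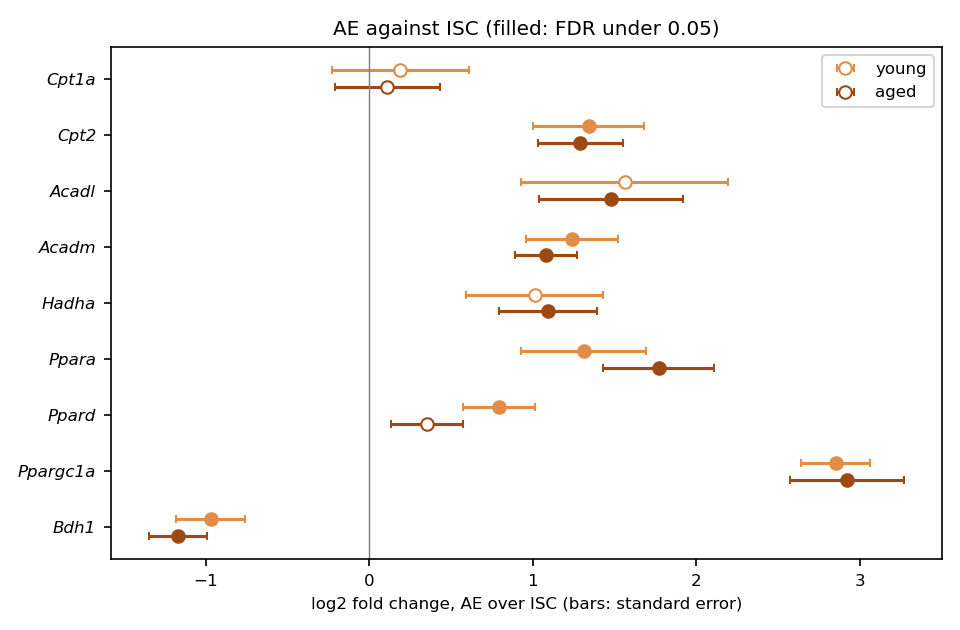
Log2 fold change of AE over ISC (x axis) with its standard error for the 9 genes (y axis) in young and aged mice, filled where the FDR was under 0.05. *Ppargc1a* lies at 2.85 and 2.92, *Bdh1* is the only gene below 0, and *Cpt1a* lies at 0.19 and 0.11 with standard errors that span 0.

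The scaling mattered to these directions. TMM factors were applied because the RNA of the cell types differs in composition, and without them (library totals only) the median of all genes fell by 0.70 log2 units in young and by 0.78 in aged mice. Of the genes called, 26.5% were then higher in AE in young mice in place of 52.2%, and 24.3% in aged mice in place of 46.8%. Those called higher were 2568 of 16681 genes tested in young and 2711 of 15855 in aged mice. These are the background for the list counts by library totals below. *Ppargc1a* stayed higher (2.15 and 2.13) and *Bdh1* lower (-1.67 and -1.95) with library totals only, and *Ppara* was still called in aged mice (0.98, FDR 0.0225) but not in young mice (0.59, FDR 0.183), nor was *Ppard* (0.09, FDR 0.761). *Cpt2*, *Acadm*, *Acadl* and *Hadha* kept their direction and none was called, and *Cpt1a* (-0.53 and -0.69) and, in aged mice, *Ppard* (-0.44) turned lower in AE without being called.

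Between genes, levels were compared per kilobase of exon. With all exons of GENCODE vM21, *Bdh1* was the highest of the 9 in young and aged ISC (85 ± 12 and 76.9 ± 11.5 CPM per kb, SD, n = 3) and *Acadl* the highest in AE (157 ± 140 and 160 ± 84.7). With the shorter basic transcript set *Hadha* was highest in all 4 groups, at 102, 89.2, 206 and 199 CPM per kb in young ISC, aged ISC, young AE and aged AE. *Ppara* (3.91 to 13.9 CPM per kb) and *Ppargc1a* (1.48 to 13.3) were the lowest in both versions. The large SD of *Acadl* means that its place above *Cpt2* (128 ± 54.6 in young AE) was within the spread of the libraries.

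The 9 genes stand in a wider pathway of 90 genes in 7 lists, of which 85 were tested. In AE against ISC, 39 were higher and 10 lower in young mice, while in aged mice 48 were higher and 14 lower, with median log2 differences of 0.87 and 0.99. The share called in either direction, 57.6% and 72.9%, stood against 53.1% and 64.1% of all genes, and more of the calls were higher in AE than over all genes (45.9% and 56.5% of the pathway genes against 27.7% and 30%). Peroxisomal β-oxidation, which shortens very long chains, was higher in AE for 10 of 12 genes in young and 11 of 12 in aged mice, with medians of 2.17 and 2.40, and with library totals only for 7 and 11. *Ehhadh*, its bifunctional enzyme, was higher in AE, 4.28-fold and 4.33-fold (FDR 0.0152 and 0.000147). Its young log2 difference ran from 1.27 without young AE library Y3 to 2.73 without young ISC library Y3, and its call was lost without Y1 or Y2 of young ISC (FDR 0.0649 and 0.0573) and with library totals only (1.38, FDR 0.0528).

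In the list of carnitine shuttle genes and acyl-CoA synthetases, 8 of 13 genes were higher in AE in young and 9 of 13 in aged mice, and 0 were lower. The shares higher were 61.5% and 69.2%, against 27.7% and 30% of all genes. With library totals only 6 and 7 were higher. *Acsl5*, which activates fatty acids to acyl-CoA, was higher by 3.05 ± 0.31 and 3.61 ± 0.29 log2 units (FDR 0.000235 and 4.1e-06). *Cpt1b*, the muscle-type counterpart of *Cpt1a*, was higher by 2.56 ± 0.40 and 2.27 ± 0.22 (FDR 0.00113 and 1.49e-05), and the carnitine-acylcarnitine carrier *Slc25a20* by 2.01 ± 0.68 and 2.05 ± 0.40 (FDR 0.0361 and 0.00144). The young call of *Slc25a20* was lost without young AE library Y3 (0.97, FDR 0.113), without Y1 or Y2 of young ISC (FDR 0.124 and 0.112) and with library totals only (1.29, FDR 0.113), and without young ISC library Y3 the value was 2.83.

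Mitochondrial β-oxidation was less one-sided, with 22.2% of its genes called higher in young mice, below the 27.7% of all genes, and 44.4% in aged mice, above the 30% of all genes. In young mice *Acadm*, *Acad11*, *Hadh* and *Decr1* were higher in AE and *Acad9* was lower among 18 genes, with 10 higher when the code was a block, 8 without both Y3 libraries and 10 without young ISC library Y3 and young AE library Y2. In aged mice 8 were higher, and *Acad9* and *Echs1* were lower. With library totals only 2 were higher at each age. *Hadh*, which acts on short and medium chains, was higher by 1.35 ± 0.25 and 1.46 ± 0.22 log2 units (FDR 0.00269 and 0.000293). *Acads*, the short-chain dehydrogenase, gave 0.34 ± 0.30 and 0.24 ± 0.25 (FDR 0.362 and 0.434), and *Acaa2*, the last enzyme of the cycle, 0.73 ± 0.51 and 0.73 ± 0.39 (FDR 0.249 and 0.127). With the block *Acaa2* was called in both, at 0.58 (FDR 0.0387) and 0.66 (FDR 0.00441). The long-chain genes *Acadvl* (0.87 ± 0.42 and 0.99 ± 0.30, FDR 0.114 and 0.0148) and *Hadhb* (0.88 ± 0.45 and 0.84 ± 0.31, FDR 0.129 and 0.0348) were called in aged mice, and in young mice with the block (FDR 0.00288 and 0.00576). In young mice *Acadvl* was also called without young ISC library Y3 (1.30, FDR 0.0326). In aged mice neither was called without aged AE library O3 (0.71 and 0.46, FDR 0.0698 and 0.168) or with library totals only (0.21 and 0.06), and *Hadhb* was not called without O1 of either cell type or O5 of aged ISC.

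The ketone body list went in both directions, with 2 genes higher and *Bdh1* and *Slc16a1* lower in AE among 8 genes in young mice. In aged mice 2 were again higher, and *Oxct1* and *Aacs* were lower as well. The young shares, 25% higher and 25% lower, were near the 27.7% and 25.4% of all genes. In aged mice they were 25% and 50%, against 30% and 34.1% of all genes. With library totals only 1 gene was higher in young mice and 0 in aged mice. *Oxct1*, needed to burn ketone bodies, gave -0.10 ± 0.39 in young mice (FDR 0.843) and -0.92 ± 0.15 in aged mice (FDR 0.00036), and the thiolase *Acat1* gave -0.23 ± 0.24 and -0.50 ± 0.21 (FDR 0.438 and 0.0578), the latter called with the block (FDR 0.0076). *Bdh2*, called higher in AE at both ages, was low everywhere, with at most 7 counts in any ISC library.

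Among 15 receptors, partners and coactivators, 7 were higher and 5 lower in AE at each age, and 3 and 5 were higher with library totals only. With TMM scaling the shares were 46.7% higher and 33.3% lower at each age. Of all genes, 27.7% and 25.4% were so in young mice and 30% and 34.1% in aged mice. *Esrra*, an orphan receptor that works with PGC-1α, was higher by 1.24 ± 0.18 and 1.44 ± 0.16 log2 units (FDR 0.000902 and 3.8e-05). *Ppargc1b*, the close relative of *Ppargc1a*, gave -0.43 ± 0.26 in young mice (FDR 0.195, and -0.77 with FDR 0.0301 without young AE library Y1) and -1.37 ± 0.17 in aged mice (FDR 5.87e-05). *Pparg* gave 0.78 ± 0.34 (FDR 0.0826, with the block 0.0143) and 1.15 ± 0.25 (FDR 0.00268, with library totals only 0.186), and *Hnf4a*, a regulator of enterocyte genes, gave -0.19 ± 0.23 and -0.17 ± 0.21 (FDR 0.499 and 0.488).

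Of 10 PPAR targets outside the enzymes, 5 were higher in AE in young and 7 in aged mice, and 0 were lower. The shares higher were 50% and 70%, against 27.7% and 30% of all genes. By library totals only 3 and 6 were higher, and 8 in young mice without young ISC library Y3 and young AE library Y2. *Fabp1* was higher by 3.05 ± 1.00 and 3.93 ± 0.85 log2 units (FDR 0.0317 and 0.0025) and *Angptl4*, a secreted lipase inhibitor, by 2.47 ± 0.73 and 2.47 ± 0.49 (FDR 0.0214 and 0.00142). Both young calls were lost with library totals only (FDR 0.0608 and 0.0571) and without young ISC library Y1 (FDR 0.0871 and 0.0842), and that of *Fabp1* also without Y2 of young ISC (FDR 0.0839) or Y3 of young AE (2.21, FDR 0.0593). Without young ISC library Y3 the young values were 5.05 and 3.40, without young AE library Y3 that of *Angptl4* was 1.73, and without aged ISC library O3 the aged value of *Fabp1* was 5.63. In the list on malonyl-CoA and fuel choice, *Mlycd*, *Pdk2* and *Pdk3* were higher and *Acaca* and *Pdk1* lower in AE among 9 genes in young mice. *Pdk4* joined the higher genes in aged mice, and with library totals only 1 and 2 were higher. With TMM scaling, 33.3% were higher and 22.2% lower in young mice, against 27.7% and 25.4% of all genes. In aged mice the shares were 44.4% and 22.2%, against 30% and 34.1% of all genes. *Pdk4*, which turns off pyruvate oxidation, gave 3.33 ± 1.25 (FDR 0.0524, with the block 4.26e-05) and 2.57 ± 0.65 (FDR 0.00629). Its young value was 1.25 without young AE library Y3, not called, and 5.05 without young ISC library Y3 (FDR 0.0189), and it was called too without young AE library Y2 (3.77, FDR 0.0223). Its aged value was 3.88 without aged ISC library O1 and was not called in the fit on all 4 groups (2.64, FDR 0.056).

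**Figure D3:**
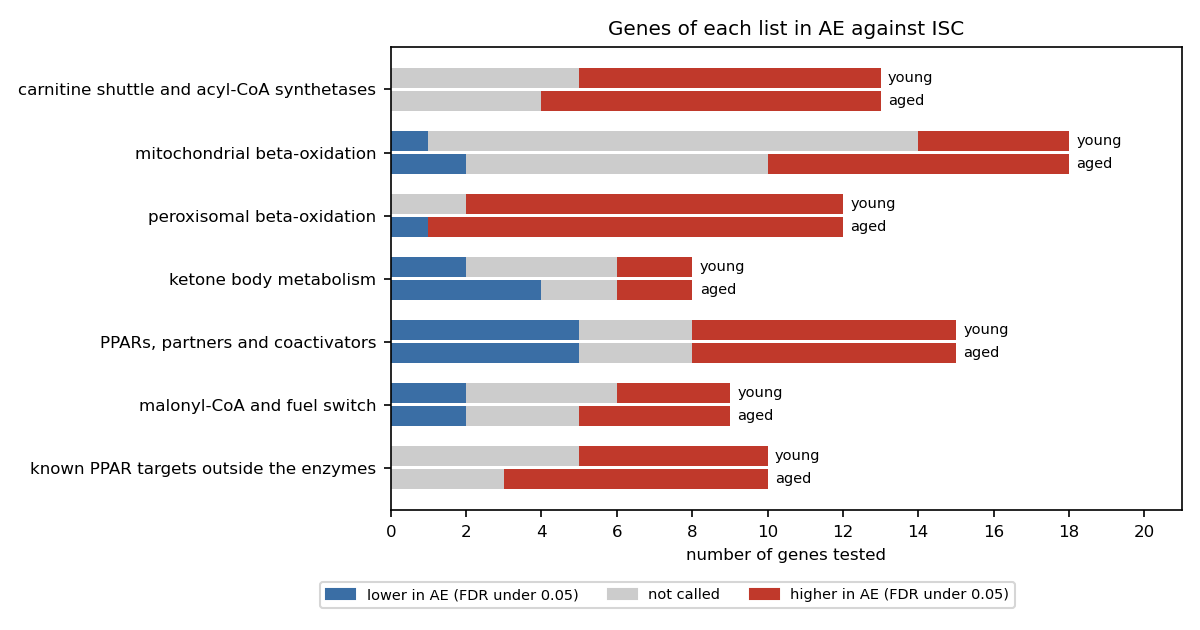
Number of genes tested (x axis) in each of the 7 pathway lists (y axis) that were lower in AE, not called or higher in AE, in young (upper bar) and aged mice (lower bar). Peroxisomal β-oxidation is the most one-sided, with 10 and 11 of 12 genes higher in AE, and ketone body metabolism has 2 higher at both ages with 2 and 4 lower.

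Age left no called difference in any of the 9 genes. In both ISC and AE 0 of 9 were called by edgeR, where 0% of the 15552 and 16265 genes tested were called, 0 of the 9 had an unadjusted p under 0.05 (4.47% and 4.97% of all genes did) and 0 were called by DESeq2, which called 58 and 18 genes in all. The log2 differences of aged against young were between -0.18 (*Hadha*) and 0.19 (*Ppargc1a*) in ISC, with FDR 1 for each gene. In AE they were between -0.25 (*Bdh1*) and 0.38 (*Ppara*), with FDR from 0.833 to 0.994. Within each cell type, the young and aged libraries of each of the 9 genes overlapped. Full separation of 3 libraries from 3 would give an exact permutation p of only 0.1, so the overlap says little by itself.

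The errors of these differences set what could be seen. In ISC the standard error was from 0.17 log2 units for *Bdh1* (-0.14) to 0.42 for *Acadl* (0.04). In AE it was from 0.19 for *Bdh1* (-0.25) to 0.61 for *Acadl* (0.04), with *Cpt1a* at 0.08 ± 0.46, *Hadha* at -0.03 ± 0.41 and *Ppargc1a* at 0.33 ± 0.21. A standard error is not a limit of detection, and differences larger than their error went uncalled. In AE these included *Ppargc1a* (FDR 0.833) and *Bdh1* (FDR 0.838). With 3 libraries a group, changes above these errors could thus be missed. Of the 85 pathway genes tested 0 were called in either cell type, with 1 in ISC and 3 in AE at an unadjusted p under 0.05, and DESeq2 called 0.

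Library Y3 weighed on the comparison by age. Without young AE library Y3, the aged to young difference in AE was 1.09 for *Acadl*, 0.84 for *Ppara*, 0.67 for *Cpt1a*, 0.55 for *Hadha*, 0.31 for *Acadm* and 0.26 for *Cpt2* (FDR from 0.333 to 0.647), where the values with Y3 were 0.04, 0.38, 0.08, -0.03, 0.05 and -0.15. Without young ISC library Y3 the difference in ISC was 0.59 for *Acadl*, 0.43 for *Cpt1a* and 0.38 for *Acadm* (FDR 1). Leaving out any other single library likewise called 0 of the 9. Marker lists also differed by age without being called: 18 of 19 enterocyte markers were lower in aged ISC (median log2 -0.94), and all 19 were higher in aged AE (0.37). In aged AE 12 of 14 stem cell markers (-1.14) and all 16 proliferation markers (-1.23) were lower. Stem cell sums were 288, 727 and 150 CPM in young AE libraries Y1, Y2 and Y3 and 174 to 256 CPM in aged AE. Proliferation sums were 213, 634 and 129 CPM against 156 to 157 CPM. For both lists Y2 was highest and Y3 was below every aged AE library. Of 10 T cell and intraepithelial lymphocyte markers 9 were lower in aged ISC (-3.22), at summed levels of 3.06 to 4.97 CPM in aged against 9.31 to 22.6 CPM in young ISC. Their part in the age values of the 9 genes was not tested.

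**Figure D4:**
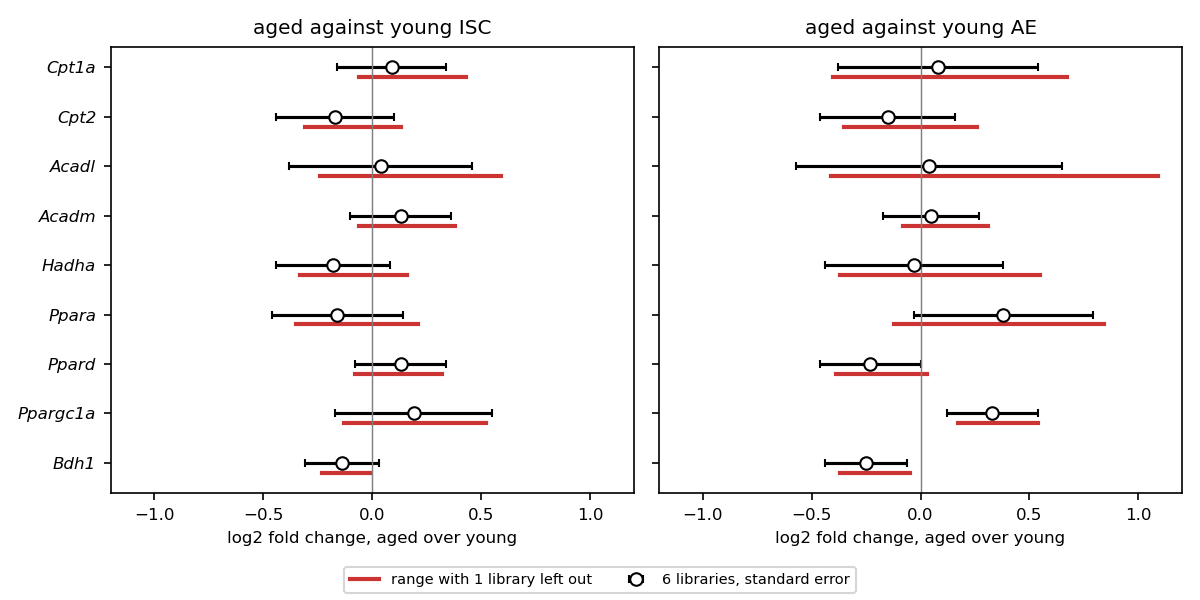
Log2 fold change of aged over young (x axis) with its standard error for the 9 genes (y axis) in ISC and AE, and below each point the range when 1 library at a time was left out. For *Acadl* in AE the range runs from -0.41 to 1.09 around 0.04, while *Ppargc1a* in AE stays between 0.17 and 0.54 and *Bdh1* in AE between -0.37 and -0.05.

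Whether the age effect differed between the cell types was tested over all 12 libraries. It was called for 0 of the 9 genes, where 0.00575% of 17377 genes were called (1 gene, against 43 by DESeq2), and 0 of the 9 had an unadjusted p under 0.05. The values were between -0.37 ± 0.33 for *Ppard* and 0.53 ± 0.56 for *Ppara*, with FDR 1 for all 9.

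Within the groups, the levels of several of the 9 genes followed the library code in both cell types, a pattern chosen for description after the values were seen. Code Y3 was the highest of the young libraries in both ISC and AE for 6 of the 9 genes, *Cpt1a*, *Cpt2*, *Acadl*, *Acadm*, *Hadha* and *Ppara*, where 15.4% of 17377 genes showed this. Code O5 was the lowest of the aged libraries in both cell types for *Cpt1a*, *Cpt2*, *Acadl*, *Acadm*, *Hadha* and *Bdh1* (6 of 9, against 17% of all genes). Code O3 was the highest of the aged libraries in both for *Cpt2*, *Acadl*, *Acadm* and *Hadha* (4 of 9, against 8.88%). *Ppard* and *Ppargc1a* showed none of these orders. *Ppard* went the other way, lowest of the young in Y3 in ISC and AE (105 and 149 CPM). Of the aged libraries O5 was the highest in both cell types for *Ppard* (158 and 186 CPM) and *Ppargc1a* (15.4 and 107 CPM). A share of all genes with these opposite orders is not given here. For the enzyme *Bdh1*, Y3 was the highest of young ISC (380 CPM) but the lowest of young AE (137 CPM).

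The size of the Y3 excess differed between genes. In AE, Y3 was 4.18-fold above the mean of Y1 and Y2 for *Acadl*, 2.51-fold for *Cpt1a*, 2.45-fold for *Hadha*, 2.1-fold for *Ppara*, 1.97-fold for *Cpt2* and 1.58-fold for *Acadm*. In ISC the same ratio was 2.38 for *Acadl* and between 1.57 and 1.85 for the others. For *Ppard*, *Ppargc1a* and *Bdh1* it was 0.677, 0.885 and 0.747 in AE, below the other 2 libraries' mean, and 0.884, 1.2 and 1.24 in ISC.

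The order of libraries was shared by the wider lists to different degrees. Beyond the members, 53 of the other 76 pathway genes were highest in Y3 among the young in both cell types, 40 were lowest in O5 and 34 highest in O3 among the aged. The Y3 order held for 16 of 18 mitochondrial β-oxidation genes (not *Acad9* or *Echs1*), 11 of 12 peroxisomal genes and 10 of 10 PPAR targets outside the enzymes. It held for fewer of the ketone body genes (4 of 8, 50%) and of the receptors and coactivators (4 of 15, 26.7%). Both shares were still above the 15.4% of all genes. O5 was lowest for 16 of 18 mitochondrial and 5 of 12 peroxisomal genes, 6 of 10 PPAR targets, 4 of 8 ketone body genes and 1 of 15 receptors and coactivators (6.67%, below the 17% of all genes). O3 was highest for 13 mitochondrial genes, 8 peroxisomal genes, 6 PPAR targets, 1 ketone body gene (12.5%) and 2 receptors and coactivators (13.3%), against 8.88% of all genes. The genes share the same libraries and are not independent of each other.

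Some pathway genes varied more between libraries than the members, and the next 4 are described after their values were seen. *Cyp4a10*, a fatty acid ω-hydroxylase, was at 4.17, 2.48 and 697 CPM in young AE libraries Y1, Y2 and Y3 and 38.1, 270 and 2.29 CPM in aged AE libraries O1, O3 and O5. In ISC it was at 0.382, 0.227 and 52.3 CPM (young) and 0.589, 5.99 and 0.178 CPM (aged), the lowest of these being 4 counts. *Acaa1b*, a peroxisomal thiolase, was at 68.1, 33.2 and 944 CPM in young AE and 225, 509 and 82.1 CPM in aged AE, and in ISC at 3, 1.82 and 65 CPM (young) and 1.46, 12.1 and 2.58 CPM (aged). In both genes Y3 and then O3 were the highest of all AE libraries.

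*Pdk4* was at 44.8, 28 and 364 CPM in young AE and 59.3, 98.3 and 34 CPM in aged AE, and in ISC at 7.26, 1.59 and 34.6 CPM (young) and 22.1, 5.02 and 3.24 CPM (aged). *Fabp1* was at 2757, 3047 and 9211 CPM in young AE and 5050, 7207 and 2720 CPM in aged AE, and in ISC at 141, 160 and 1506 CPM (young) and 122, 741 and 70.4 CPM (aged). In AE, Y3 and O3 were thus the highest of their age and O5 the lowest of the aged for each of these 4 genes. The order did not hold throughout: in aged ISC *Pdk4* was highest and *Acaa1b* lowest in O1, and in aged AE *Angptl4* was lowest in O1 (18.8 CPM, against 66.2 CPM in O3 and 45.6 CPM in O5).

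Depth and markers differed between these libraries too. Young AE library Y3 was the deepest, but young ISC library Y3, at 14133772 counts, was within the range of the others. The summed enterocyte markers were 77817, 92582 and 95045 CPM in young AE libraries Y1, Y2 and Y3 and 99030, 121849 and 121998 CPM in aged AE libraries O1, O3 and O5. Library O5, with the lowest *Acadl* of the aged AE libraries, thus had as high a marker sum as O3, with the highest. In ISC the sums were 5030, 4734 and 9744 CPM in Y1, Y2 and Y3 and 2134, 5699 and 3919 CPM in O1, O3 and O5, so Y3 and O3 were highest in these markers as well. The part of these differences in the order of the libraries was not tested.

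**Figure D5:**
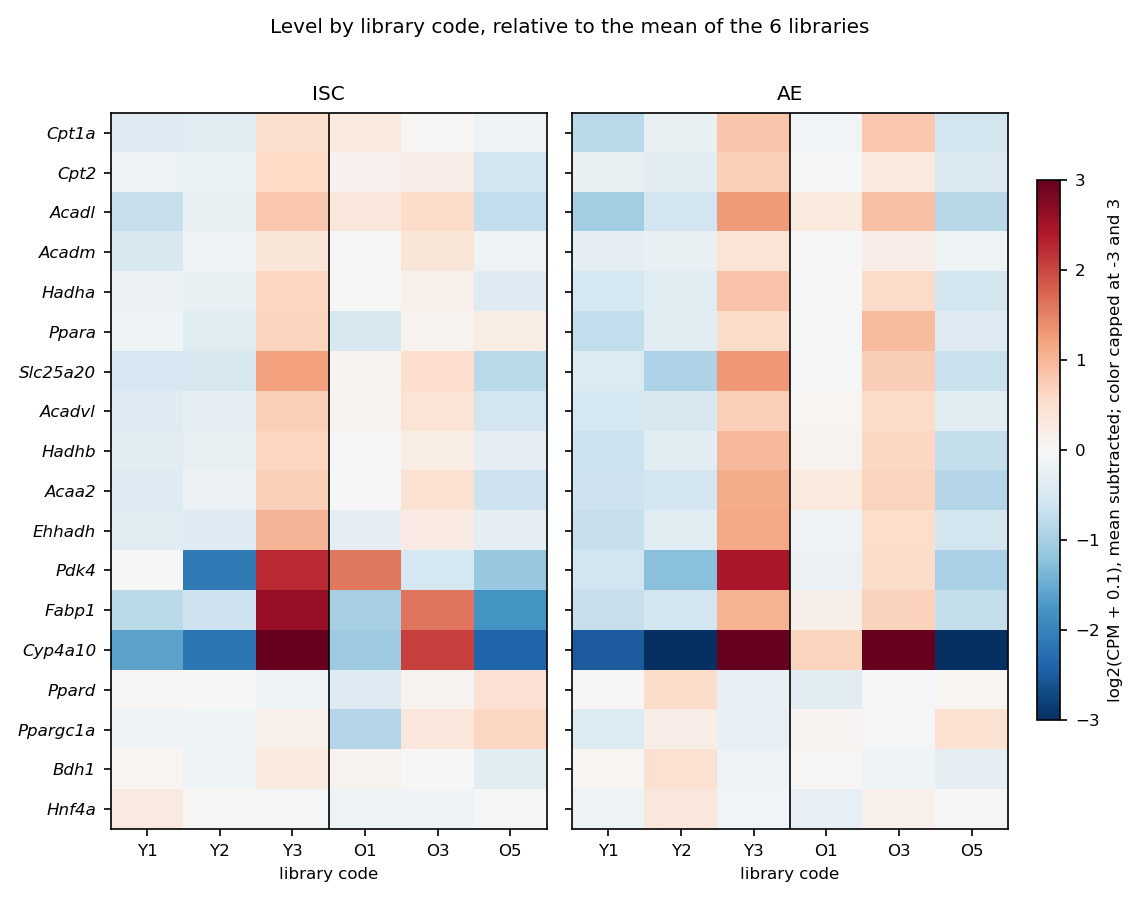
Log2(CPM + 0.1) of 18 genes (rows) by library code (columns) in ISC and AE, relative to each gene's mean over the 6 libraries of the cell type, with the color capped at -3 and 3. From *Cpt1a* down to *Cyp4a10*, Y3 lies above the mean in both panels and O5 of AE lies below it, by little for *Acadm*. *Ppard*, *Ppargc1a*, *Bdh1* and *Hnf4a* at the bottom follow other orders.

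For each member, the gene with the most similar profile was found among 12642 genes with a mean of at least 1 CPM, by Pearson's r of log2 CPM over the 12 libraries. The libraries fall into 2 cell types, so a high r reflects the cell type difference as well as the order within it. For *Acadl* it was *Acadvl* (r = 0.982), which encodes the very long-chain acyl-CoA dehydrogenase. For *Hadha* it was *Hsdl2* (0.993), for *Cpt1a* *Scarb2* (0.961), for *Cpt2* *Elmod3* (0.990) and for *Acadm* *Adtrp* (0.996). For the regulators it was *Pank3* with *Ppara* (0.978), *Pik3r3* with *Ppard* (0.939) and *Sesn1* with *Ppargc1a* (0.995), and for *Bdh1* it was *Cct7* (0.985).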

How the data were processed

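Poly(A)+ RNA of sorted cells was sequenced as 50 bp single-end reads from stranded libraries made with 14 PCR cycles. The authors trimmed adaptors with Trim Galore 0.4.4, mapped reads to GRCm38 with HISAT2 2.1.0 and counted the uniquely mapped reads in SeqMonk, on merged transcripts and over their exons. The deposited values used here are these raw counts, without normalization. The annotation release is not given in the sources used here, and whether the counting used strand is not either.

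For each comparison, genes whose summed count was at least 10 were kept and scaled by TMM. They were tested in edgeR 4.0.16 (R 4.3.3, limma 3.58.1) by its quasi-likelihood test with Benjamini-Hochberg adjustment over all genes tested and an FDR threshold of 0.05. Each comparison used the libraries of its groups, and the difference of age effects used all 12. This differs from the study's DESeq2 test, which was run as an alternative (DESeq2 1.42.0). The scripts were tested on simulated data.

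All 9 members passed the filter in each comparison. The members, the 7 pathway lists and the 10 marker lists were chosen with earlier results of these data known. Beyond the members, the text names 18 genes fixed from the lists, the gene most similar to each member, and genes of lists with 5 or fewer calls. A few other genes of the lists are counted but not reported here by name. The deviations from the group means were correlated between libraries that share a code (r of 0.192 to 0.397 for all 6 pairs with a shared code and of -0.316 to 0.0825 for the 12 pairs without), so the pairing by code entered as a block when AE and ISC were compared and when their age effects were. The sources do not say that libraries of 1 code came from 1 mouse. The other alternatives were RLE and upper-quartile scaling, no filter or filterByExpr, a fit on all 4 groups and leaving out each library. Added after seeing the data were library totals only, leaving out young ISC library Y3 with young AE library Y2, and leaving out both Y3 libraries.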

Additional observations from a re-analysis of the deposited data

How the results depend on the processing

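The limits are the 3 libraries a group, the uncertain tie of libraries to mice, and the scaling between cell types. The lowest count of a member in a library was 145 (*Ppargc1a* in young ISC), and counting error is part of the spread between libraries there. The causes of the changes below were not tested.

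With the code as replicate block (pairing), 8 of 9 members were called in AE against ISC at each age in place of 6 and 7, *Cpt1a* turned to -0.01 in aged mice, *Acadl* turned to 0.15 in the difference of age effects, and 21 genes in place of 1 were called there. Among the 9 members and the 18 genes fixed from the lists, which were run under each alternative, the block changed no other call than those given beside their results. In AE against ISC, DESeq2 called 8 and 7 members in young and aged mice, and 9052 of 16681 and 10078 of 15855 genes in all. By age it called 58 genes in ISC and 18 in AE, and 43 in the difference of age effects. In that difference *Cpt1a* turned to 0.02 and *Acadl* to 0.03, with DESeq2 and with RLE factors. The fit on all 4 groups called 2 genes by age in ISC, and no filter on low counts called 1 in ISC and 2 in AE.

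With library totals only, 2 and 3 members were called in AE against ISC in young and aged mice. Of all genes, 2568 were then higher and 7137 lower in young mice, and 2711 higher and 8468 lower in aged mice. In young mice *Cpt1a* turned to -0.53 and *Acads* to -0.37, and in aged mice *Cpt1a* to -0.69, *Ppard* to -0.44, *Acads* to -0.54 and *Acaa2* to -0.04. By age in AE, *Cpt1a* turned to -0.03, *Acadl* to -0.05 and *Acadm* to -0.07. In the difference of age effects *Cpt2* turned to -0.12 and *Ppargc1a* to -0.02, and 0 genes were called.

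Without both Y3 libraries, 8 members were called in young mice, where *Cpt1a* turned to -0.06 and *Oxct1* to 0.18. By age, *Cpt2* turned to 0.13, *Hadha* to 0.16 and *Ppara* to 0.21 in ISC, and *Cpt2* to 0.26 and *Hadha* to 0.55 in AE, where 1 gene was called. In the difference of age effects *Cpt1a* turned to 0.23, *Acadl* to 0.49 and *Ppargc1a* to -0.01, with 0 genes called. Without young ISC library Y3 and young AE library Y2, 7 members were called in young mice and the ISC age values were as without Y3 (0.13, 0.16 and 0.21). By age in AE *Cpt1a* turned to -0.05, *Acadl* to -0.24, *Acadm* to -0.04 and *Ppard* to 0.03, and in the difference of age effects *Cpt2* turned to -0.46 and *Hadha* to -0.38, with 0 genes called.

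Leaving out 1 library at a time called 4 to 7 members in young and 6 to 8 in aged mice, 7040 to 8595 and 9039 to 10063 genes in all, 0 to 1 genes by age in ISC, 0 to 1 in AE and 0 to 3 in the difference of age effects, with 0 members called in the latter 3 comparisons. Of the other named genes, *Slc25a20*, *Ehhadh*, *Fabp1* and *Angptl4* lost the call in young mice in 3, 2, 3 and 1 of 6 such fits, and *Acadvl* and *Hadhb* in aged mice in 1 and 4 of 6. The ranges of values that changed sign by age in ISC were *Cpt1a* -0.06 to 0.43, *Cpt2* -0.31 to 0.13, *Acadl* -0.24 to 0.59, *Acadm* -0.06 to 0.38, *Hadha* -0.33 to 0.16, *Ppara* -0.35 to 0.21, *Ppard* -0.08 to 0.32 and *Ppargc1a* -0.13 to 0.52. The ranges of values that changed sign by age in AE were *Cpt1a* -0.40 to 0.67, *Cpt2* -0.35 to 0.26, *Acadl* -0.41 to 1.09, *Acadm* -0.08 to 0.31, *Hadha* -0.37 to 0.55, *Ppara* -0.12 to 0.84 and *Ppard* -0.39 to 0.03. The ranges of values that changed sign in AE against ISC of young mice were *Cpt1a* -0.45 to 0.52, *Acads* -0.08 to 0.59, *Acaa2* -0.13 to 1.15 and *Oxct1* -0.66 to 0.21. The ranges of values that changed sign in AE against ISC of aged mice were *Cpt1a* -0.39 to 0.38. The ranges of values that changed sign in the difference of age effects were *Cpt1a* -0.58 to 0.53, *Cpt2* -0.28 to 0.39, *Acadl* -0.56 to 1.00, *Acadm* -0.34 to 0.14, *Hadha* -0.27 to 0.69, *Ppara* -0.05 to 0.96, *Ppargc1a* -0.20 to 0.47 and *Bdh1* -0.29 to 0.03.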
